A study of Homo sapiens with 12 samples.

Results

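The comparison set U251 glioblastoma cells with ETV6 silenced against U251 cells with NFKB1 silenced, directly and without the control arrays. It used 6 of the 12 arrays of the study, chosen by their titles: 3 arrays with ETV6 siRNA and 3 arrays with NFKB1 siRNA. One probe set stood for each gene, the one with the highest mean over the 12 arrays among those that name 1 gene, and 7760 of 10346 genes were bright enough to be tested. U251 is an established human glioblastoma line, obtained from the ATCC and grown in DMEM with serum. Cells received a transient transfection with DharmaFECT 2 of a pool of small interfering RNAs (ON-TARGETplus SMARTpool) against ETV6 or against NFKB1, each at 50 nM. The other 6 arrays were 3 with both siRNAs and 3 with a control siRNA that has no human target. The sources used here do not give the time between transfection and harvest. Total RNA was converted to biotin-labelled cRNA and hybridized to Affymetrix expression arrays, 1 array per sample, and each value is a log2 level of a probe set. The labels do not tell whether a group's 3 arrays stand for 3 independent cultures. The p-values therefore reflect only how far these arrays differed from each other, and that spread may be technical.

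ETV6 is a transcriptional repressor of the ETS family, whose members bind DNA around a GGAA core. NFKB1 encodes p105, which is processed to p50, a subunit of the NF-kB dimers that drive cytokine, chemokine and survival genes. In glioblastoma, NF-kB activity is known for its part in inflammatory and mesenchymal gene expression. Because both groups received an active siRNA, a difference between them can come from either siRNA pool, and the level in control siRNA cells is given last where it helps to place it. Each target was silenced with a single pool, so loss of the target and other effects of that pool cannot be told apart. Unless control is named, words such as raised, rose, lowered and fell describe ETV6 siRNA relative to NFKB1 siRNA, not a change from control.

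The promoters of 4 genes that were among the most strongly lowered with ETV6 siRNA relative to NFKB1 siRNA are shown because their products stand for the themes below: a chemokine under NF-kB, an immediate early factor, a hypoxia gene and the named gene with the largest fall besides ETV6 itself. Each is the RefSeq window of GRCh38.p14 from 250 bases before to 50 bases after the gene's start, read 5′ to 3′ on the gene's strand. Motifs were searched on both strands, and capitals mark those named for each window after the sequences; other motif matches are left in lower case.
CXCL8: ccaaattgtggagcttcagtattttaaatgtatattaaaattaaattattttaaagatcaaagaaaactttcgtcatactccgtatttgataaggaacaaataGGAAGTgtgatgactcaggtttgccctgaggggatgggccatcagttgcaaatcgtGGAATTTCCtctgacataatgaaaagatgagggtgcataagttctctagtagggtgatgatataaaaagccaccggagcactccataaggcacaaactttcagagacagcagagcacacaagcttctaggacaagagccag
EGR1: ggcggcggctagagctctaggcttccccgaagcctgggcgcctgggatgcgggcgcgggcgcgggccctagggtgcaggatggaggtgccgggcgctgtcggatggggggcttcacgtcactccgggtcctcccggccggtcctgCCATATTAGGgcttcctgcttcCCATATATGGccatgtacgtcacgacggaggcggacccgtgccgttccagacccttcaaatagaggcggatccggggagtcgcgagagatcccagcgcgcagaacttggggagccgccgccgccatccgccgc
ANKRD37: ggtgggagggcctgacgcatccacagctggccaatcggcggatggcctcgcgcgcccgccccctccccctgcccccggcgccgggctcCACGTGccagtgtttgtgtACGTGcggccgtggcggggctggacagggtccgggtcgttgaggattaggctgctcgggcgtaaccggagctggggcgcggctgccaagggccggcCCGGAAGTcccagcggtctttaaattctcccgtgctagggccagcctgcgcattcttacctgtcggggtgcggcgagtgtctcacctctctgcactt
CITED1: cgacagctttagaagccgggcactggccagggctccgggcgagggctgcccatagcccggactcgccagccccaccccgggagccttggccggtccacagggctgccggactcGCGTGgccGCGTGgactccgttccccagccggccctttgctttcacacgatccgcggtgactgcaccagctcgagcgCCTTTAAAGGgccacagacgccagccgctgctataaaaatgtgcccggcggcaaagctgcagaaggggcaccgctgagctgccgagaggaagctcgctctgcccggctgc
The CXCL8 window (chr4:73740319-73740618, plus strand) holds the NF-kB motif GGAATTTCC, which starts 91 bases before the gene's start, and the ETS core GGAAGT. In the EGR1 window (chr5:138465229-138465528, plus strand) the capitals are 2 CArG boxes, the motif of serum response factor. The capitals in the ANKRD37 window (chr4:185396591-185396890, plus strand) are ACGTG letters of the hypoxia response element, in part overlapping on the 2 strands, and 1 ETS motif CCGGAAGT. The CITED1 window (chrX:72307108-72307407, minus strand) is the first of 3 listed for the gene and holds GCGTG letters and 1 CArG box. A match describes the letters in the window and is not a binding site.

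Before the results, the arrays themselves were compared. Array medians lay between 8.18 and 8.27 with ETV6 siRNA and between 8.08 and 8.20 with NFKB1 siRNA, and 5th percentiles between 5.74 and 5.97 with ETV6 siRNA and between 5.46 and 5.69 with NFKB1 siRNA. The poly-A spike-in signals overlapped (8.37 to 9.15 with ETV6 siRNA and 8.51 to 8.88 with NFKB1 siRNA), and so did the 3′ minus 5′ difference of ACTB (1.58 to 1.68 with ETV6 siRNA and 1.52 to 1.65 with NFKB1 siRNA). The third NFKB1 siRNA array lay farther from its group mean than the others (root mean square deviation 0.113, against 0.068 to 0.088 for the other 5 arrays). The part of these differences in the results was not tested, and counts are given with and without the arrays where that matters.

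The targeted genes followed their labels. ETV6 read 6.80, 6.78 and 6.60 with ETV6 siRNA, 8.73, 8.72 and 8.64 with NFKB1 siRNA, and 9.02, 9.02 and 8.58 with control siRNA. All 3 ETV6 siRNA arrays lay below every other array. The log2 difference between ETV6 and NFKB1 siRNA was -1.97 (SE 0.07, limma adjusted p = 7.745e-06), a level 25.5% of that with NFKB1 siRNA, and the gene's second probe set gave -2.74. NFKB1 read 7.85, 7.74 and 7.85 with ETV6 siRNA, 6.95, 6.75 and 6.05 with NFKB1 siRNA, and 7.22, 7.24 and 7.49 with control siRNA. The groups did not overlap, the NFKB1 siRNA arrays were the lowest of these 3 groups and the third was the lowest among them. The difference was 1.23 (SE 0.20, adjusted p = 0.003104, 2.34-fold), on the gene's only probe set. It is larger than the fall from control, because every ETV6 siRNA array lay above every control array. Mean levels were 7.81 with ETV6 siRNA, 6.59 with NFKB1 siRNA and 7.32 with control siRNA. In bulk RNA, fewer cells expressing a gene and less RNA per cell cannot be told apart.

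With the deposited values, 3015 of 7760 genes (38.9%) passed an adjusted p under 0.05, 1909 of them higher (24.6%) and 1106 lower (14.3%) with ETV6 siRNA. The split depended on how the arrays were scaled: with every array shifted to the same median 3907 genes (50.3%) were called, 1530 higher (19.7%) and 2377 lower (30.6%), and after quantile normalization 3772 (48.6%), 1724 higher (22.2%) and 2048 lower (26.4%). Leaving out 1 array changed mainly the lower count, which was 615 when ETV6 siRNA replicate 2 was dropped, 599 without ETV6 siRNA replicate 3, 637 without NFKB1 siRNA replicate 1 and 513 without NFKB1 siRNA replicate 2, when 1968 genes were called in all. Without the third array of both groups, 1815 were higher and 894 lower. The median log2 difference of all genes tested was 0.0022 as deposited, -0.0785 after the shift and -0.0415 after quantile normalization. The 3 arrays of one group all lay above the 3 of the other in 4095 genes (52.8%). Called the same way under all 3 scalings were 1459 genes higher (18.8%) and 1106 lower (14.3%). Differences over 1.5-fold were mostly in 1 direction, 330 higher (4.25%) and 38 lower (0.49%), and this held across levels, with 91 higher and 10 lower in the quintile of dimmest genes and 20 higher and 7 lower in that of the brightest.

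**Figure D1:**
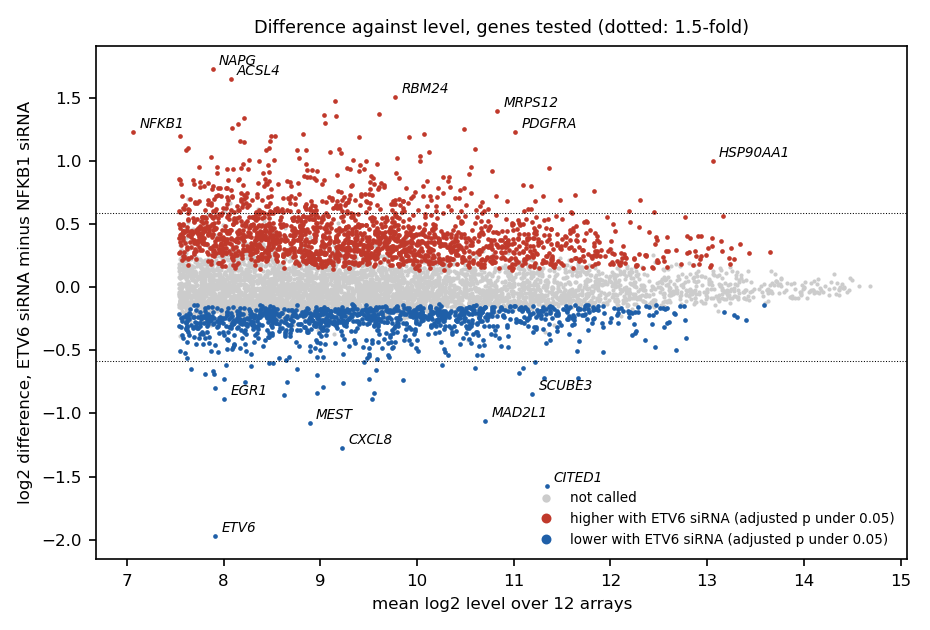
Log2 difference (ETV6 siRNA minus NFKB1 siRNA, vertical axis) against mean log2 level over the 12 arrays (horizontal axis), 1 point per gene tested. More genes lie beyond 1.5-fold above 0 (330 called) than below it (38 called), at all levels.

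Among the named lowered genes other than ETV6, CITED1, a transcriptional coactivator, stood apart from the rest. It read 10.61, 10.55 and 10.61 with ETV6 siRNA, 12.17, 12.23 and 12.11 with NFKB1 siRNA, and 11.78, 11.86 and 11.70 with control siRNA. The ETV6 siRNA arrays lay over 1 log2 unit below the NFKB1 siRNA and control arrays, and the difference was -1.57 (SE 0.05, adjusted p = 7.745e-06, 2.98-fold). CXCL8, the neutrophil chemokine interleukin-8, read 8.49, 8.76 and 8.52 with ETV6 siRNA, 9.84, 9.66 and 10.09 with NFKB1 siRNA, and 9.83, 9.72 and 9.62 with control siRNA. NFKB1 siRNA and control arrays overlapped, and ETV6 siRNA arrays were below both; the difference was -1.27 (SE 0.12, adjusted p = 0.0003085, 2.42-fold), and -0.91 on the other probe set. MEST, an imprinted gene, read 8.52, 8.62 and 8.42 with ETV6 siRNA and 9.63, 9.67 and 9.51 with NFKB1 siRNA, a difference of -1.08. The immediate early factor EGR1 read 7.85, 7.56 and 7.50 with ETV6 siRNA and 8.62, 8.65 and 8.29 with NFKB1 siRNA, with no overlap and a difference of -0.89 (-0.84 on its other probe set).

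Other lowered genes were MAD2L1, a spindle checkpoint protein (-1.06), KLHL7, a ubiquitin ligase adaptor (-0.89), and TBX2, a T-box repressor (-0.86). MAD2L1 had -0.41, not past the threshold, on its other probe set. The other probe sets of KLHL7 gave -0.68 and 0.45, the latter past the threshold in the opposite direction, so its direction depends on the probe set. SCUBE3 and BAMBI, both linked to TGF-beta signalling, were lower than with NFKB1 siRNA by 0.85 and 0.84 on the log2 scale. MFSD2A, a lipid transporter, was lower by 0.84, and ROPN1, RHPN2 and ANKRD37 by 0.80, 0.76 and 0.79. In ANKRD37 every ETV6 siRNA array lay above every control array. SCUBE3 had control levels that overlapped those with ETV6 siRNA: it read 10.93, 10.87 and 10.76 with ETV6 siRNA, 11.74, 11.71 and 11.65 with NFKB1 siRNA, and 10.92, 10.89 and 10.80 with control siRNA.

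Among the raised genes, several had control levels near those with ETV6 siRNA. MRPS12, a mitochondrial ribosomal protein, read 11.72, 11.61 and 11.65 with ETV6 siRNA, 10.29, 10.38 and 10.12 with NFKB1 siRNA, and 11.50, 11.65 and 11.51 with control siRNA. The NFKB1 siRNA arrays were more than 1 log2 unit below the ETV6 siRNA and control arrays, and the difference was 1.40 (SE 0.07, adjusted p = 8.373e-05, 2.63-fold), with 0.90 on its other probe set. ACTA2, smooth muscle actin, read 9.87, 9.90 and 9.82 with ETV6 siRNA, 8.40, 8.44 and 8.67 with NFKB1 siRNA, and 9.50, 9.49 and 9.45 with control siRNA (difference 1.37). RBM24, an RNA-binding protein, read 10.19, 10.28 and 10.32 with ETV6 siRNA and 8.86, 8.81 and 8.60 with NFKB1 siRNA (1.51, 2.84-fold). PDGFRA, the receptor of platelet-derived growth factor that is often amplified in glioblastoma, read 11.27, 11.35 and 11.23 with ETV6 siRNA, 10.13, 10.04 and 9.99 with NFKB1 siRNA, and 10.72, 10.79 and 11.12 with control siRNA. Its difference was 1.23 (SE 0.06, adjusted p = 8.27e-05) and 0.49 on its other probe set.

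The 2 highest differences among the named genes, NAPG and ACSL4, came with a wide spread of the NFKB1 siRNA arrays. NAPG, a vesicle fusion adaptor, read 8.14, 8.35 and 8.07 with ETV6 siRNA and 6.74, 6.81 and 5.82 with NFKB1 siRNA (difference 1.73, SE 0.24), but its other probe set gave -0.07. ACSL4, which activates arachidonic acid, read 8.10, 8.54 and 8.04 with ETV6 siRNA and 6.71, 6.91 and 6.11 with NFKB1 siRNA (1.65, SE 0.21). In both genes the third NFKB1 siRNA array was the lowest. HAPSTR1 (1.48), RAI14 (1.38), GASK1B (1.35), the cadherin FAT3 (1.34), BCAT1, which starts branched-chain amino acid breakdown (1.30), SH3D19 (1.29), SYNC (1.26) and the neurofilament NEFL (1.25) complete the 14 highest that were named. BCAT1 read 8.67, 9.05 and 8.78 with ETV6 siRNA, 7.64, 7.57 and 7.39 with NFKB1 siRNA, and 9.51, 9.53 and 10.11 with control siRNA. All 3 groups stood apart, with the control highest.

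**Figure D2:**
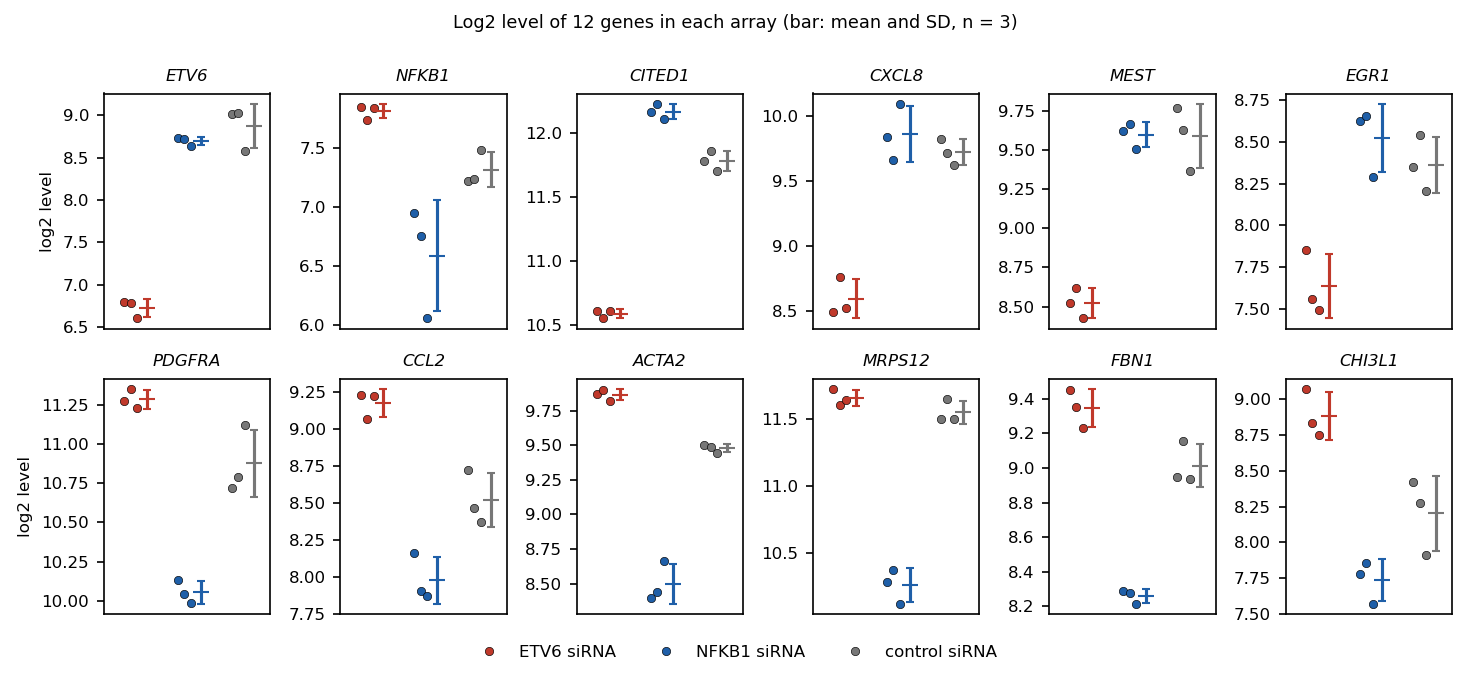
Log2 level (vertical axis) of 12 genes in each array of the ETV6 siRNA, NFKB1 siRNA and control siRNA groups; dots are arrays and bars the mean ± SD (n = 3). CITED1, CXCL8 and MEST are lowest with ETV6 siRNA, and MRPS12, ACTA2, PDGFRA, CCL2 and FBN1 are lowest with NFKB1 siRNA.

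Where the control arrays lay differed with direction. Of the 330 genes over 1.5-fold higher with ETV6 siRNA, the control mean lay above both groups in 145, between them in 185 and below both in 0. Their median level was 8.95 with ETV6 siRNA, 8.19 with NFKB1 siRNA and 9.0 with control siRNA. Of the 38 lower genes, the control mean was between the groups in 32, below both in 5 and above both in 1, with median levels of 8.68 with ETV6 siRNA, 9.63 with NFKB1 siRNA and 9.11 with control siRNA. Among called genes with another probe set, 1614 in number, the next-brightest set had the same sign in 1474 and was called the same way in 772 and the opposite way in 14. Other probe sets are given here for some genes only, and for the rest they may be weaker or not called.

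The list counts below are to be read beside the shares of all genes, 24.6% higher and 14.3% lower as deposited. After the shift these shares were 19.7% and 30.6%, and after quantile normalization 22.2% and 26.4%. With 1 array left out, 1396 to 1815 of the 7760 genes were higher and 513 to 1423 lower. NF-kB target genes differed in both directions. Of 30 genes on the list 18 had a probe set and 12 were tested, and of these 3 rose and 4 fell with ETV6 siRNA relative to NFKB1 siRNA (24.6% and 14.3% of all genes did), with a median difference of 0.07 as deposited, -0.01 after the shift and -0.01 after quantile normalization. CCL2, which recruits monocytes, read 9.23, 9.07 and 9.22 with ETV6 siRNA and 8.16, 7.91 and 7.87 with NFKB1 siRNA, with control arrays at 8.72, 8.47 and 8.37 between them (difference 1.19, adjusted p = 0.0001333). So 2 chemokines of this list, CCL2 and CXCL8, differed in opposite directions. PLAU, the urokinase protease, was higher (0.49), and TNIP1, an inhibitor of NF-kB signalling, lower (-0.37). Without NFKB1 siRNA replicate 2, 2 members fell. Of 11 tested NF-kB subunits and regulators 3 rose and 0 fell (median 0.06, but -0.02 and -0.03 under the other scalings). The named ones were the kinase MAP3K7 (0.38, 0.34 and adjusted p = 0.0631 without ETV6 siRNA replicate 2) and its adaptor TAB2 (0.30, below the threshold without ETV6 siRNA replicate 2 or 3 or NFKB1 siRNA replicate 2 or 3). Of this list, 0 members rose without ETV6 siRNA replicate 2, and 1 rose without ETV6 siRNA replicate 3 or NFKB1 siRNA replicate 3, when 3 fell.

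Of 13 tested ETS family members other than ETV6, 6 rose and 2 fell (24.6% and 14.3% of all genes did), with a median of 0.29. ELK3, a repressor of the ternary complex group, read 9.87, 10.01 and 9.81 with ETV6 siRNA, 9.22, 9.09 and 9.03 with NFKB1 siRNA, and 10.22, 10.18 and 10.28 with control siRNA (0.78). ETS2 (0.45) and ETS1 (0.29), activators of the family, were also higher, while ETV5, a factor downstream of fibroblast growth factor signalling, read 8.52, 8.31 and 8.55 with ETV6 siRNA against 9.02, 9.11 and 8.92 with NFKB1 siRNA and was lower (-0.56). The second member that fell was ELK1 (-0.20), named after its value was seen, and 1 member fell without any one of ETV6 siRNA replicates 2 and 3 and NFKB1 siRNA replicates 1 and 2.

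Genes of the hypoxia response were lower with ETV6 siRNA than with NFKB1 siRNA, while of all genes 14.3% fell and 24.6% rose. Of 21 tested members 15 fell and 0 rose (1 rose with array weights), with a median of -0.30 as deposited, -0.38 after the shift and -0.37 after quantile normalization, against 0.0022, -0.0785 and -0.0415 for all genes. Between 10 and 16 members fell across the alternatives. ANKRD37, a hypoxia-inducible ankyrin protein, read 8.96, 8.82 and 8.92 with ETV6 siRNA, 9.64, 9.76 and 9.66 with NFKB1 siRNA, and 8.64, 8.61 and 8.79 with control siRNA. HILPDA, which coats lipid droplets, read 9.81, 9.74 and 9.79 with ETV6 siRNA, 10.48, 10.59 and 10.49 with NFKB1 siRNA, and 9.56, 9.70 and 9.59 with control siRNA. For both genes the NFKB1 siRNA arrays were highest of the 3 groups, and the differences were -0.79 and -0.74 (adjusted p = 0.0001573 and 0.0001249). MIR210HG, the host transcript of miR-210, had a difference of -0.69, and the glycolysis regulator PFKFB4 -0.68. Mean levels with ETV6, NFKB1 and control siRNA were 7.67, 8.35 and 7.44 for MIR210HG, and 11.02, 11.70 and 10.69 for PFKFB4. In ANKRD37, HILPDA, MIR210HG and PFKFB4 every ETV6 siRNA array lay above every control array. Named after their values were seen, the angiogenic factor VEGFA (-0.44), the mitophagy receptor BNIP3 (-0.40) and the glucose transporters SLC2A3 (-0.47) and SLC2A1 (-0.23) were among the other 11 that fell.

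The microRNA of MIR210HG was not measured on the arrays. It is shown because the host transcript is the one readout of that locus here, from RefSeq GRCh38.p14 (chr11:568112-568133, minus strand), with the seed, bases 2 to 8, in capitals.
hsa-miR-210-3p: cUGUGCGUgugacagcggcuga

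Of 16 tested glycolytic genes 4 fell and 0 rose (median -0.08, and 9 fell after the shift). Of all genes 14.3% fell and 24.6% rose, and 30.6% fell after the shift. PFKP, the platelet isoform of phosphofructokinase, read 11.07, 11.07 and 11.08 with ETV6 siRNA, 11.64, 11.74 and 11.63 with NFKB1 siRNA and 11.10, 10.997 and 11.18 with control siRNA (-0.59). PGAM1, ENO2 and GPI, other enzymes of the pathway, differed by -0.26, -0.42 and -0.22. GPI lost its call in the fit of all 12 arrays (adjusted p = 0.1001) and in that with the control arrays added (0.1196).

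**Figure D3:**
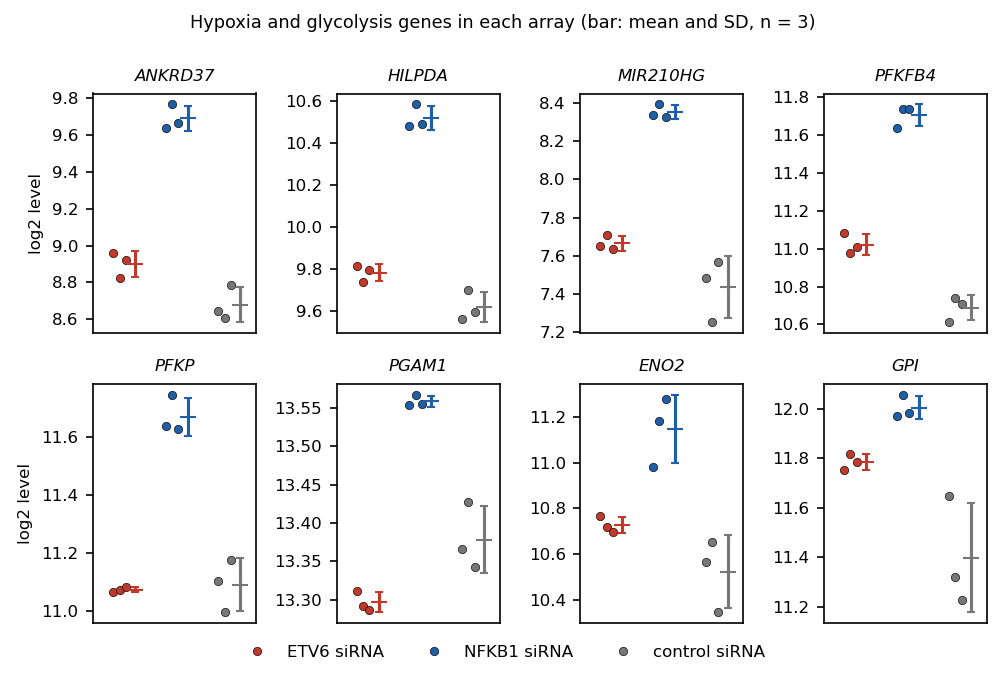
Log2 level (vertical axis) of 8 hypoxia and glycolysis genes in each array of the 3 groups, dots being arrays and bars the mean ± SD (n = 3). The NFKB1 siRNA arrays are the highest in each of the 8 panels, and ETV6 siRNA and control siRNA arrays lie lower, as in PFKFB4 (means 0.68 apart on the log2 scale).

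Mitotic genes were more often lower with ETV6 siRNA than with NFKB1 siRNA, while of all genes 14.3% fell and 24.6% rose. Of 29 tested G2/M genes 14 fell and 4 rose (median -0.18). UBE2C, which loads ubiquitin for the anaphase-promoting complex, read 11.20, 11.24 and 11.25 with ETV6 siRNA and 11.60, 11.66 and 11.68 with NFKB1 siRNA (-0.42). BIRC5, survivin, and CCNB1, cyclin B1, differed by -0.38 and -0.37, while KIF23, a midbody kinesin, was higher (0.71). The other probe set of CCNB1 gave -0.21, not past the threshold. Of 28 G1/S and replication genes 8 fell and 3 rose (median -0.11), among them cyclin E1 CCNE1 (-0.60), E2F2 (-0.36) and CDC45, part of the replicative helicase (-0.31). After the shift 15 fell, while 1 rose without NFKB1 siRNA replicate 1 or 2 and 5 rose without NFKB1 siRNA replicate 3. DNA repair genes went the other way in the fit of the 6 arrays: 5 of 13 rose and 0 fell (median 0.29). MSH6, of mismatch repair, read 10.40, 10.50 and 10.41 with ETV6 siRNA, 9.89, 9.88 and 10.00 with NFKB1 siRNA, and 10.59, 10.87 and 10.86 with control siRNA (0.51), and TP53BP1, which marks double-strand breaks, differed by 0.32. BRCA1 (0.38) and ATR (0.47) lost their call in some alternatives. The other probe sets of TP53BP1 and BRCA1 gave 0.16 and 0.14, not past the threshold. In the fit that added the 3 control arrays 2 of the 13 rose, and 8 without ETV6 siRNA replicate 3. Of all 7760 genes 1336 and 1737 rose in these fits. With the control arrays added, the list's share was thus near that of all genes. Of 11 p53 targets 5 rose (median 0.22), such as GADD45A (0.41), or 3 without ETV6 siRNA replicate 2 and 2 in the fit of all 12 arrays. In the same order 1396 and 1695 of all 7760 genes rose, so in the fit of all 12 arrays this list's share was near that of all genes.

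Genes of the extracellular matrix were more often higher than lower with ETV6 siRNA, while of all genes 24.6% rose and 14.3% fell. Of 23 tested members 14 rose and 0 fell, with a median of 0.23. Under all 3 scalings 10 rose, as did 18.8% of all genes. Relative to genes of like span on the genome, compared below, the list median was 0.05. In the quintile of longest genes were 10 of the 23. FBN1, the microfibril protein fibrillin, read 9.45, 9.35 and 9.23 with ETV6 siRNA, 8.29, 8.28 and 8.21 with NFKB1 siRNA, and 8.95, 9.16 and 8.94 with control siRNA (1.08, adjusted p = 8.653e-05, 2.12-fold). MMP14, a membrane matrix protease, differed by 0.61, the proteoglycan VCAN by 0.69 with all 5 of its probe sets between 0.68 and 0.90, and the collagen COL6A3 by 0.40. Without ETV6 siRNA replicate 2, 8 members rose, and without NFKB1 siRNA replicate 2, 9 did. In the same order 1396 and 1455 of all 7760 genes rose. Of 12 TGF-beta and YAP targets 7 rose and 0 fell (median 0.34), among them ACTA2 above, AJUBA, a LIM adaptor of the Hippo pathway (0.79), LATS2, a kinase of that pathway (0.36), and AMOTL2 (0.32). The other probe set of LATS2 gave 0.20, not past the threshold. Of 10 integrin subunits 5 rose and 0 fell (median 0.40): ITGB4 (0.58), ITGB1 (0.43), ITGAV (0.42) and ITGA3 (0.39) are named. In the fit that added the control arrays 3 subunits rose, and 1336 of all 7760 genes did. ITGAV lost its call in that fit (adjusted p = 0.126) and in the fit of all 12 arrays (0.07611). Their control levels varied: ITGB1 read 12.05, 12.23 and 12.03 with ETV6 siRNA, 11.71, 11.67 and 11.63 with NFKB1 siRNA, and 12.71, 12.70 and 12.80 with control siRNA, the highest of these 3 groups.

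Among 11 receptor tyrosine kinases 7 rose and 2 fell (median 0.32), beside 24.6% and 14.3% of all genes. EGFR, the receptor most often altered in glioblastoma, read 10.00, 10.17 and 9.98 with ETV6 siRNA, 9.46, 9.34 and 9.31 with NFKB1 siRNA, and 10.14, 10.22 and 9.98 with control siRNA (0.68), although its 5 probe sets ranged from -0.08 to 0.75. DDR2, a collagen receptor, differed by 0.56 and FGFR3 by -0.51. With a gene's probe sets averaged, 4 rose, and 1 fell without any one of ETV6 siRNA replicates 2 and 3 and NFKB1 siRNA replicates 1 and 2.

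Markers of the cell type were present in both groups. GFAP, the astrocyte filament, averaged 13.2 with ETV6 siRNA and 13.4 with NFKB1 siRNA, vimentin 14.5 and 14.5 in those groups, and all 10 of 15 astroglial and stem markers with a probe set that names 1 gene were tested. Of these 3 rose and 4 fell, beside 24.6% and 14.3% of all genes. CHI3L1, a secreted glycoprotein of mesenchymal glioma, read 9.07, 8.83 and 8.75 with ETV6 siRNA, 7.78, 7.86 and 7.57 with NFKB1 siRNA, and 8.42, 8.27 and 7.91 with control siRNA (1.15, 2.21-fold). SLC1A3, the glutamate transporter, differed by 0.55, and S100B and SOX9 by -0.55 and -0.31. Of 14 mesenchymal glioma markers 6 rose and 0 fell (median 0.05, and -0.03 after the shift), including WWTR1 (0.69) and YAP1 (0.62), the coactivators of the Hippo pathway. Of the other probe sets of WWTR1, 1 gave 0.56 and 1 gave -0.23, past the threshold in the opposite direction, and those of YAP1 gave 0.64 and 0.03. MET had a difference of 0.41, and of 0.07 when its probe sets were averaged. Of the other cell types, 2 of 7 epithelial markers were tested, MUC1 and KRT18, and neither was called (-0.20 and 0.02). MUC1 was called lower after the shift (-0.28), after quantile normalization (-0.29), with array weights (-0.29) and without ETV6 siRNA replicate 1 (-0.32). Of the 8 immune markers 0 had a probe set in the deposited table that names 1 gene, and of the 6 endothelial ones 1 did and was too dim to test. Whether the table, with 19520 probe sets, holds all those of the array was not checked. A marker without a probe set is thus unmeasured here, not absent from the cells. Of 7 neuronal markers MAP2 was tested and was higher (0.64, but 0.31 and not past the threshold on its other probe set).

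Stress and metabolic genes split, and some of their counts lay near the shares of all genes (24.6% higher and 14.3% lower). Of 14 heat shock genes 5 rose and 1 fell, or 3 rose without ETV6 siRNA replicate 2, NFKB1 siRNA replicate 1 or NFKB1 siRNA replicate 2. HSP90AA1, the inducible cytosolic HSP90, read 13.23, 13.36 and 13.25 with ETV6 siRNA, 12.23, 12.20 and 12.42 with NFKB1 siRNA, and 13.15, 13.35 and 13.35 with control siRNA. The NFKB1 siRNA arrays lay below all others (difference 1.00, adjusted p = 0.0001249), and 4 probe sets gave 1.00 to 1.32. DICER1, which cuts microRNA precursors, read 8.52, 8.87 and 8.46 with ETV6 siRNA, 7.73, 7.52 and 7.0 with NFKB1 siRNA, and 8.87, 9.12 and 9.26 with control siRNA (1.20, SE 0.18, with 3 probe sets between 1.20 and 1.42), while of the other 9 small RNA genes 1 fell. The fallen count was 0 without ETV6 siRNA replicate 2 or 3 or NFKB1 siRNA replicate 2 and 2 without NFKB1 siRNA replicate 3, and 2 of the 10 rose without ETV6 siRNA replicate 3 or NFKB1 siRNA replicate 1. Of 20 ATF4 and endoplasmic reticulum stress genes 8 rose and 5 fell, and only 3 of the 8 rises held under all 3 scalings. DDIT4 (-0.47) and ATF3 (-0.44) were lower, and VLDLR (0.34) higher. Without ETV6 siRNA replicate 2, NFKB1 siRNA replicate 1 or NFKB1 siRNA replicate 2, 5 of them rose. The glutathione gene GCLM was higher (0.54). Of 17 NRF2 and antioxidant response genes 3 rose, 2 of them under all 3 scalings, and 3 fell. Without NFKB1 siRNA replicate 3, 6 rose, and without NFKB1 siRNA replicate 2, 0 fell.

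Of 15 immediate early and MAPK feedback genes 3 rose and 5 fell (median -0.04), or 1 rose without ETV6 siRNA replicate 2 or 3. Of all genes 24.6% rose and 14.3% fell. Beside EGR1, the feedback inhibitor SPRY2 read 7.98, 7.82 and 7.77 with ETV6 siRNA, 8.38, 8.39 and 8.28 with NFKB1 siRNA, and 8.04, 8.08 and 7.88 with control siRNA (-0.49). MYC, a growth factor-induced transcription factor, read 8.98, 8.89 and 9.03 with ETV6 siRNA, 8.47, 8.39 and 8.52 with NFKB1 siRNA, and 8.75, 8.76 and 8.48 with control siRNA (0.51). ETV6 and NFKB1 siRNA arrays did not overlap in either gene, and the direction of the difference was opposite.

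Of 24 mitochondrial ribosomal proteins 9 fell and 1, MRPS12, rose (median -0.14), beside 14.3% and 24.6% of all genes. MRPL16 (-0.29) and MRPS16 (-0.24) were among those that fell. The fallen count was 3, 2, 4 and 2 without ETV6 siRNA replicate 2, ETV6 siRNA replicate 3, NFKB1 siRNA replicate 1 and NFKB1 siRNA replicate 2, and 15 after the shift. In the same order 615, 599, 637 and 513 of all 7760 genes fell, and 30.6% after the shift. Without ETV6 siRNA replicate 3 or NFKB1 siRNA replicate 2, the list's share was thus near that of all genes. Of 17 cytosolic ribosomal proteins 0 passed limma's test in either direction and 0 had an unadjusted p under 0.05, while 4 fell after the shift and 3 with robust variances. For the other lists with a count of 0 in 1 direction, an unadjusted p under 0.05 gave 0 in that direction too, except for 1 NF-kB subunit or regulator lower and 1 glycolytic gene higher.

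**Figure D4:**
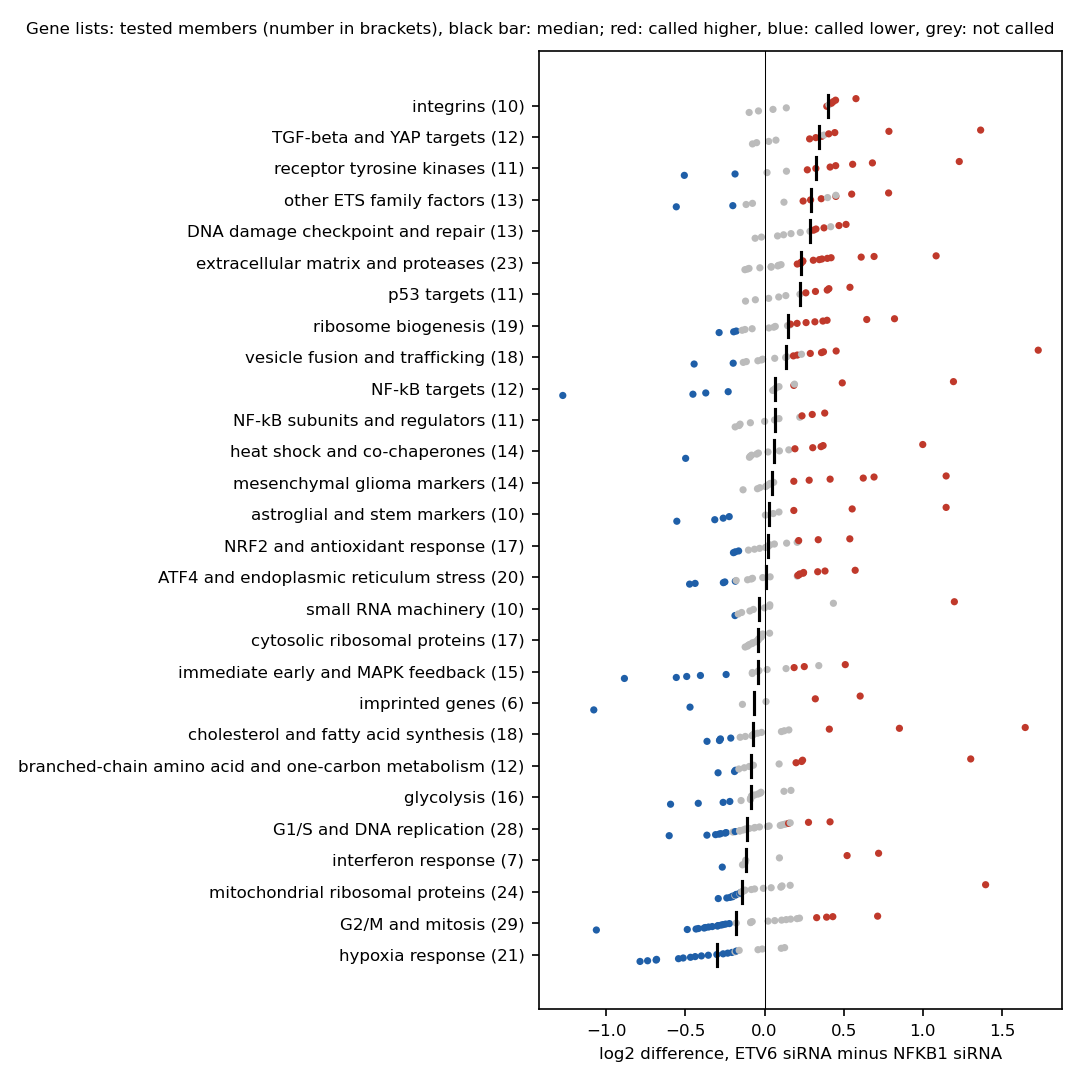
Log2 difference (ETV6 siRNA minus NFKB1 siRNA, horizontal axis) of the tested members of each gene list (rows), 1 point per gene, colored by direction and call, with a black bar at the median. Hypoxia genes lie mostly left of 0 (median -0.30), and TGF-beta and YAP targets and integrins mostly right of it (medians 0.34 and 0.40).

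The promoters of these genes were compared with those of all genes tested, 6576 of which have a window. The ETS motif CCGGAAGT was in 10.0% of all windows, in 4.59% of the windows of genes over 1.5-fold higher with ETV6 siRNA (13 of 283), and in 1 of 32 windows of genes over 1.5-fold lower. Among genes called lower under 3 scalings it was in 102 of 921 windows (11.1%), and among those called higher in 96 of 1237 (7.76%). The CArG box was in 1.11% of all windows, in 10 of the 921 (1.09%) and in 3 of the 32, which include EGR1 and CITED1. For NF-kB only the exact letters GGAATTTCC were searched, so other forms of its motif were not counted. They were in 3 of the 283 windows of genes over 1.5-fold higher and 1 of the 32 of those lower, against 0.38% of all windows. The 1 lower window is that of CXCL8 shown above, so it adds nothing to that sequence. GGAAGT was in 20.1% of the higher and 6 of the 32 lower, against 28.8% of all, and the hypoxia letters ACGTG or GCGTG in 64.3% of the higher and 21 of the 32 lower, against 65.6% of all. GGAAGT also lies within CCGGAAGT.

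The share of genes that rose with ETV6 siRNA relative to NFKB1 siRNA was higher among long genes. The span of a gene on the genome (RefSeq, GRCh38.p14) was compared after the values had been seen. In the quintile of longest genes (over 90.3 kb) 46.9% rose and 5.735% fell, and in that of the shortest (up to 9.997 kb) 8.57% rose and 20.1% fell, with the quintiles between in order. The median difference was 0.20 in the longest quintile and -0.08 in the shortest as deposited, 0.12 and -0.16 after the shift, and 0.14 and -0.11 after quantile normalization. As the median deviation from each gene's mean over the 6 arrays, less the median of the array, the longest quintile stood at 0.0657, 0.1363 and 0.0664 in the ETV6 siRNA arrays, -0.0781, -0.1001 and -0.1006 in the NFKB1 siRNA arrays, and 0.0385, 0.0687 and 0.1663 in the control arrays. The ETV6 siRNA and control arrays overlapped and the NFKB1 siRNA arrays were below both. Genes called higher under all 3 scalings had a median span of 73.2 kb, those called lower 19.6 kb and all genes tested 30.9 kb. The share rising in the longest quintile was 37.1% without ETV6 siRNA replicate 2, the lowest value when 1 array was left out. Span moves with several lists: the median span was 79.4 kb for the matrix genes, 70.1 kb for DNA repair and 68.5 kb for integrins, against 33.5 kb for hypoxia genes, 27.9 kb for G2/M genes, 14.9 kb for TGF-beta and YAP targets and 5.88 kb for mitochondrial ribosomal proteins. Relative to the median of their quintile of span, the list medians were 0.05 for matrix genes, 0.37 for TGF-beta and YAP targets, 0.28 for integrins, 0.175 for DNA repair, -0.07 for mitochondrial ribosomal proteins, -0.34 for hypoxia genes and -0.16 for G2/M genes. The part of gene span in the lists' differences was not tested.

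**Figure D5:**
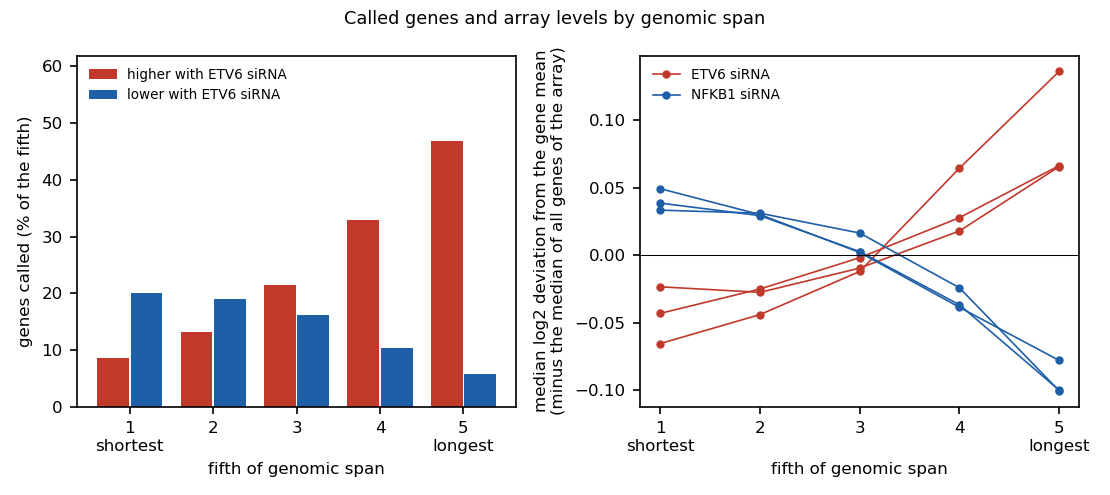
Share of genes called higher or lower with ETV6 siRNA (percent, vertical axis) and array medians by quintile (labelled 1 to 5) of genomic span (horizontal axis, shortest to longest). The share called higher was 8.57% in the shortest quintile and 46.9% in the longest.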

How the data were processed

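The deposited table holds log2 levels of probe sets, computed by the authors. The log base was taken from the range of the values, and the sources used here do not give the background correction, summarization or normalization. The table has 19520 probe sets: 57 controls, 17313 that name a single gene, 857 with several genes and 1293 with none. Of these, 17307 matched RefSeq GRCh38.p14 by Entrez identifier and 0 symbols were updated. The brightest probe set over the 12 arrays was kept for each of 10346 genes, 4482 of which had more than 1. Genes with a mean over 12 arrays under its 25th percentile (log2 7.54) were left out, except ETV6 and NFKB1, which left 7760. No array pair held identical values (0 pairs) and 0 value columns were unused.

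A linear model of the 6 arrays was fitted in R 4.3.3 with lmFit and eBayes of limma 3.58.1. The residual degrees of freedom were 4 and the prior ones 3.905. Tests were two-sided, with Benjamini-Hochberg adjustment over the 7760 genes and a threshold of 0.05. An exact permutation test of 3 against 3 arrays cannot go below 0.1 and was not used. On simulated data for this comparison (7760 genes, 100 changed per fold size) the fit recovered 90% of 1.5-fold and 97% of 2-fold changes, with 4.59% false among calls. The simulated noise was independent between genes, with no shift between arrays. In the real arrays 38.9% of genes were called and the medians differed, so these rates do not describe the real calls. The number of arrays limits the precision.

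Named were ETV6, NFKB1 and the 14 highest and 14 lowest called differences whose groups did not overlap and which were called under 3 scalings. Names without annotation (LOC, orf, KIAA, LINC, FAM, TMEM, CCDC and the like) were left out before these were ranked. Up to 4 members of each gene list were also named by adjusted p, and for a list with none, up to 2 are given as values. The comparison, its members and the gene lists were chosen with earlier results of these data known. Promoters were read from RefSeq windows, the first listed for each gene. Alternatives were other scalings, filters, probe set rules, arrays in the fit, array weights, trend and robust variances, a replicate block and leaving out arrays.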

Additional observations from a re-analysis of the deposited data

How the results depend on the processing

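Of 3015 called genes, 1909 were higher, 1106 lower and 368 over 1.5-fold. The lower count was 2377 with arrays shifted to the same median, 2048 after quantile normalization, 2098 with array weights and 727 in a fit with the 3 control arrays. With every probe set on its own, 4608 were called, 3164 higher and 759 over 1.5-fold; with a filter at the 50th percentile 207 were over 1.5-fold. Leaving out 1 array gave 1968 to 3238 called genes, 1396 to 1815 higher, 513 to 1423 lower and 299 to 458 over 1.5-fold. Leaving out the third array of both groups, chosen after the data were seen, gave 2709 called genes. Replicate numbers were not used as pairs in the main fit. Same-numbered arrays deviated with correlations of 0.153, -0.0752 and 0.482, and not every array correlated best with its own number. The value of 0.482, for the third arrays, was the highest of all pairs between the groups. The third arrays also had the lowest poly-A spike-in signal of their groups (8.37 with ETV6 siRNA and 8.51 with NFKB1 siRNA). Whether same-numbered arrays share an effect was not tested. With the replicate number as a block 3478 genes were called, 2164 higher and 1314 lower, and no named gene lost its call. Of 125 named genes 121 were called, 21 of them lost the call in some of 17 alternatives, and 0 changed sign. The cause of these changes was not tested, other than that fewer genes or arrays enter some fits. Array medians and 5th percentiles differed between the groups, which limits what can be said of small shifts.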

Other observations

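Of 18 tested cholesterol and fatty acid synthesis genes 3 rose and 5 fell with ETV6 siRNA relative to NFKB1 siRNA. Of all genes 24.6% rose and 14.3% fell, and some counts of this section lay near these shares. ELOVL6, a fatty acid elongase, read 9.01, 9.14 and 8.92 with ETV6 siRNA, 8.30, 8.18 and 8.04 with NFKB1 siRNA, and 8.53, 8.56 and 8.98 with control siRNA (0.85), and the desaturase SCD differed by 0.41, but by 0.12 as the mean of its probe sets. INSIG1, which retains the sterol sensor, was lower (-0.28), and 2 members fell without ETV6 siRNA replicate 2 or NFKB1 siRNA replicate 2, and 3 without ETV6 siRNA replicate 1 or 3 or NFKB1 siRNA replicate 3. Of 7 interferon genes 2 rose, IFIT3 (0.72) and IFIT1 (0.52), both interferon-induced, and IRF9 fell (-0.27).

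Of 6 imprinted genes 2 rose and 2 fell, beside 24.6% and 14.3% of all genes. Beside MEST, PLAGL1 was lower (7.80, 7.86 and 7.87 with ETV6 siRNA against 8.35, 8.36 and 8.23 with NFKB1 siRNA), and PEG10 (0.60) and GRB10 (0.32) were higher. Of 19 ribosome biogenesis genes 8 rose and 3 fell. NOL6, a nucleolar protein, read 8.37, 8.16 and 8.16 with ETV6 siRNA, 7.49, 7.41 and 7.33 with NFKB1 siRNA, and 8.15, 8.14 and 7.60 with control siRNA, and GRWD1 differed by 0.65. Without ETV6 siRNA replicate 2 or NFKB1 siRNA replicate 1, 5 members rose and 1 fell. Of 18 vesicle fusion genes 7 rose and 2 fell, or 1 fell without ETV6 siRNA replicate 2 or NFKB1 siRNA replicate 2. Beside NAPG these were VAMP3 (0.45) and VAMP7 (0.37), both SNAREs, while the endosomal STX12 differed by -0.45. The other probe set of STX12 gave -0.20, not past the threshold. Of 12 genes of branched-chain amino acid and one-carbon metabolism 4 rose, led by BCAT1, and 3 fell, and 1 of the 4 rises held under 3 scalings. The risen count was 2 without ETV6 siRNA replicate 2 or NFKB1 siRNA replicate 1, and the fallen count 1 without ETV6 siRNA replicate 3 or NFKB1 siRNA replicate 2.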
